A study of Mus musculus with 8 samples.

Results

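The genes described here are 9 outputs of the circadian clock, Dbp, Tef, Hlf, Nfil3, Ciart, Bhlhe40, Bhlhe41, Usp2 and Wee1, in the livers of male mice fed a high-fat, choline-deficient (HFCD) diet, which loads the liver with lipid. They were taken by name from a count table of 49585 genes, in which each name matched 1 Ensembl identifier. RNA was sequenced from 8 livers, 1 per mouse, after 3 months on HFCD begun at day 21. In the 3 LP245/+ mice (Alb-CreTG, Trp53wm-R245W/+), the albumin-driven Cre recombinase converts 1 Trp53 allele from wild type to the R245W missense form. In the 2 LPfl/+ mice (Alb-CreTG, Trp53fl/+), the same Cre deletes 1 Trp53 allele. The 3 LP+/+ controls are labelled Alb-Cre0, so that their alleles, Trp53fl/+ in replicates 1 and 2 and Trp53wm-R245W/+ in replicate 3, stayed unrecombined. The study itself names controls both with and without the Cre transgene, and the labels were followed here. The study places the activity of Alb-Cre in hepatocytes and cholangiocytes. RNA of whole liver therefore also comes from cells with unaltered Trp53. The hour of dissection and the feeding state at dissection are not given in the sources used here.

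Each liver gave between 26304526 and 31370714 counts. Trp53 itself had normalized read counts (counts divided by a size factor for each library) of 226, 258 and 202 for LP+/+ replicates 1 to 3, of 127 and 178 for the LPfl/+ livers, and of 316, 294 and 193 for LP245/+ replicates 1 to 3. Both LPfl/+ livers were below every other liver, while the whole-gene count cannot tell the R245W allele from the wild-type allele. The library numbers in the labels form 2 series. The first series holds the 3 LP245/+ livers and LP+/+ replicates 2 and 3, and the second holds LP+/+ replicate 1 and both LPfl/+ livers. The libraries stood apart by series. On the first principal component of all genes, with 31.1% of the variance, LP+/+ replicate 1 lay at -42.6 and the LPfl/+ livers at -26.7 and -33.2, whereas the 5 livers of the first series lay between 15.1 and 28.2. LPfl/+ and LP245/+ share no series, so that this genotype difference and the series cannot be told apart except through LP+/+ replicate 1. Results are therefore given also within a series or with the series as a covariate. They are given without LP+/+ replicate 1 as well, which leaves LPfl/+ alone in the second series and its comparisons inseparable from the series.

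The clock of a liver cell is a loop in which CLOCK, or its relative NPAS2, pairs with BMAL1 (the product of Arntl) and activates genes through a DNA element called the E-box. Among those genes are Per, Cry and Nr1d, whose products in turn shut the activators down, and several of the output genes described here. DBP, TEF and HLF are the PAR bZIP transcription factors, which activate genes from a second element, the D-box. NFIL3, also named E4BP4, binds the same element and represses it. CIART (CHRONO), BHLHE40 (DEC1) and BHLHE41 (DEC2) act against CLOCK and BMAL1 at E-boxes. USP2 is a deubiquitinase, and WEE1 is a kinase that holds cells before mitosis. In the liver, the PAR bZIP factors are known for driving daily rhythms of detoxification enzymes.

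Because these genes are known as outputs of the clock loop, the 250 bases before each RefSeq gene start (GRCm38.p6) were searched on both strands. The motifs were the E-box CACGTG, the D-box as TTATGTAA or TTACGTAA, and AGGTCA, the half-site of the elements bound by NR1D receptors. The table used here held windows for 7 of the 9 genes, 8 windows in all. An E-box was present in the windows of 3 genes, Ciart, Tef and Bhlhe41, and in 6.02% of all 32851 windows of the same length. The Ciart window holds 3 E-boxes, which begin 116, 58 and 44 bases before the start, and each of the 2 Tef starts and the Bhlhe41 start has 1. The only other match was an AGGTCA in the Nfil3 window, read on the opposite strand and beginning 12 bases before the start, a motif that 14.02% of all windows hold. No window of these genes held either spelling of the D-box (0.931% of all windows), and for Dbp, Hlf and Usp2 none of the letters searched lies in this window. These matches describe the sequence and are not evidence of binding. The windows with an E-box are shown 5′ to 3′ along the strand of the gene, with the E-boxes in capitals.
Ciart, chr3:95882229-95882478, minus strand: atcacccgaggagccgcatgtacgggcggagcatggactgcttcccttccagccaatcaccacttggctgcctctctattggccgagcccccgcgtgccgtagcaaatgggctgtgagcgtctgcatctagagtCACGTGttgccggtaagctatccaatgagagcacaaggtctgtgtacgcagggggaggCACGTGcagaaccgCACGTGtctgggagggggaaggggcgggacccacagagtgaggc
Tef, upstream start, chr15:81802423-81802672, plus strand: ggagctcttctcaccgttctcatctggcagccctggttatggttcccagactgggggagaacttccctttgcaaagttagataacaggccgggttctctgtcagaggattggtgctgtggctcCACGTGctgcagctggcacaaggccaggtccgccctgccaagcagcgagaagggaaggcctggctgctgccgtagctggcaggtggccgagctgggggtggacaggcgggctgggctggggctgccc
Tef, downstream start, chr15:81811164-81811413, plus strand: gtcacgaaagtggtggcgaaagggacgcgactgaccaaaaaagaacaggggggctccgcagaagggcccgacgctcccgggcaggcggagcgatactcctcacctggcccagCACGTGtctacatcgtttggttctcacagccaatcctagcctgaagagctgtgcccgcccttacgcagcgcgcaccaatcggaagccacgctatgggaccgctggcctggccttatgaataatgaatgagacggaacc
Bhlhe41, chr6:145865421-145865670, minus strand: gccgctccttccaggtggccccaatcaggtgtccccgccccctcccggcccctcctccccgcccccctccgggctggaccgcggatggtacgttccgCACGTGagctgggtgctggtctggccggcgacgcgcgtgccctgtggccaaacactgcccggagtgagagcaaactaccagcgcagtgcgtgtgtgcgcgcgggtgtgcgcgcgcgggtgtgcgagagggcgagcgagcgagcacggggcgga

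The 9 genes differed in how far they ranged over the 8 livers, with Dbp the widest, lowest in LP+/+ replicate 1 and highest in LP245/+ replicate 1. The swing of a gene, the log2 of its highest over its lowest normalized read count (each with 1 added), was 4.79 for Dbp, a 27.6-fold range that 0.533% of the 16496 tested genes reached. Ciart swung by 3.10 and Usp2 by 2.99 on the log2 scale, and 2.18% and 2.46% of all tested genes swung at least as far. Bhlhe41 swung by 2.78, on few counts. Tef swung by 1.99 (3.96-fold), Wee1 by 1.39 and Nfil3 by 1.29. Bhlhe40, at 0.79, and Hlf, at 0.72, were close to the median swing of all tested genes, 0.69. Among the 10229 genes with a mean normalized read count of at least 100, the median was 0.48, and 18.1% and 22.5% swung at least as far as Bhlhe40 and Hlf. Bhlhe41 aside, LP245/+ replicate 1 was the highest liver for 7 of 8 genes, as it was for 14.5% of all tested genes, and LP+/+ replicate 2 for Nfil3. The lowest liver varied more. It was LP+/+ replicate 1 for Dbp, Tef, Bhlhe41 and Wee1, LPfl/+ replicate 2 for Hlf, Nfil3 and Usp2, and LP+/+ replicate 3 for Ciart and Bhlhe40. Without LP+/+ replicate 1, the swing of Dbp was 3.67 and that of Tef 1.40. Without LP245/+ replicate 1, the swing of Ciart was 2.47 and that of Usp2 2.12. Within the first series alone, Dbp swung by 2.70 and Ciart by 3.10, and within the 3 livers of the second series by 1.44 and 0.76. A swing over fewer livers cannot be wider than that over all 8, so that the shares and medians above do not apply to these values.

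**Figure D1:**
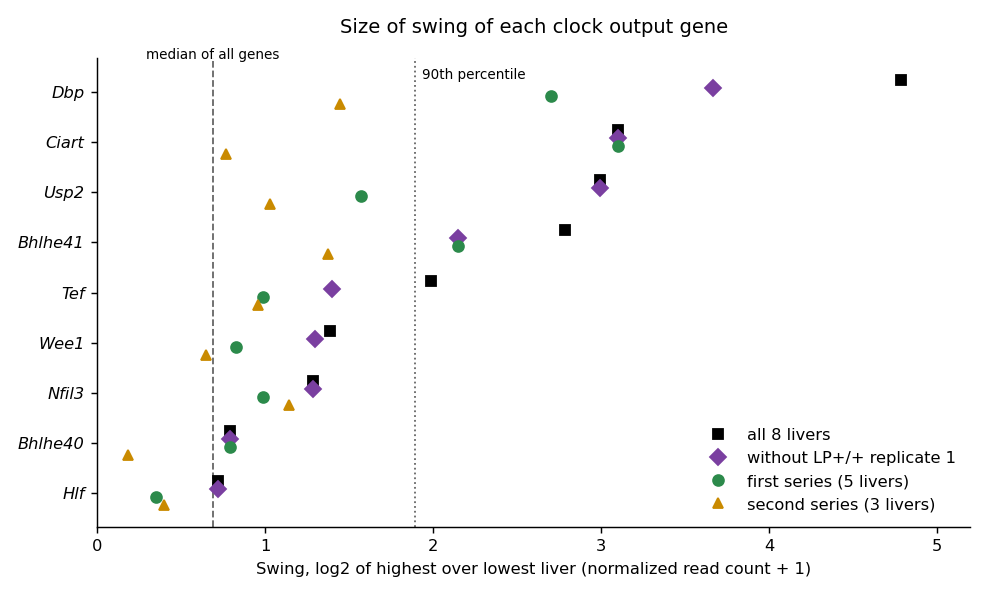
Swing of each clock output gene on the log2 scale (x axis), as the highest over the lowest normalized read count with 1 added, over all 8 livers, without LP+/+ replicate 1, and within each series of library numbers. The dashed line is the median of all 16496 tested genes (0.69) and the dotted line their 90th percentile (1.89), both over all 8 livers. A swing over fewer livers cannot be wider than that over all 8, so that the lines are no background for those points. Dbp (4.79) lies farthest right, and Bhlhe40 and Hlf lie near the dashed line.

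Levels were also set on a per-length scale (RPKM, read counts scaled to the length of the exons and the size of the library), on which genes can be compared with each other. The mean RPKM over the 8 livers was 19.0 for Nfil3, 13.8 for Bhlhe40, 10.8 for Tef, 4.92 for Hlf, 2.84 for Dbp, 1.02 for Wee1, 0.750 for Usp2, 0.636 for Ciart and 0.0562 for Bhlhe41. The neighbours that kept this order in all 8 livers were Bhlhe40 over Tef, Tef over Hlf, and Ciart over Bhlhe41. The other neighbours changed places in 1 or 2 livers. Dbp, for example, fell below Wee1 in 2 livers and exceeded Hlf in 2.

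Dbp, the PAR bZIP factor with the widest daily rhythm in liver, lies at chr7:45705088-45710203 on the plus strand. The LP+/+ livers, replicates 1 to 3, had normalized read counts of 23.2, 221 and 102, the LPfl/+ livers 64.8 and 51.5, and the LP245/+ livers 667, 267 and 530. All LP245/+ livers were above all others, whereas both LPfl/+ livers lay inside the range of LP+/+. In LP245/+ compared with LP+/+ (488 ± 203, SD, n = 3, and 115 ± 99.6, SD, n = 3), the log2 fold change of Dbp was 2.09 (SE 0.59), with an adjusted p of 0.795 (quasi-likelihood test of edgeR, adjusted by Benjamini-Hochberg over 16496 genes). In LPfl/+ compared with LP+/+, it was -0.98 (SE 0.72, edgeR adjusted p = 0.813), but -0.11 without LP+/+ replicate 2 and -1.46 without LP+/+ replicate 1. In LP245/+ compared with LPfl/+ it was 3.07 (SE 0.74, edgeR adjusted p = 0.362). Dbp also followed the series, since the LP+/+ livers of the first series exceeded the LP+/+ liver of the second by 2.75 on the log2 scale. Inside the first series, LP245/+ exceeded LP+/+ by 1.59, and inside the second, LPfl/+ exceeded LP+/+ replicate 1 by 1.29. With the series as a covariate, the log2 fold change of LP245/+ over LP+/+ was 1.61 (SE 0.40, adjusted p = 0.513), and that of LPfl/+ over LP+/+ turned to 1.33. Fewer cells that express a gene and less of its RNA per cell cannot be told apart in whole liver, here or for any gene that follows.

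Tef, the PAR bZIP factor at chr15:81802421-81826863 (plus strand), which carries the E-box windows shown with its 2 starts, was measured at 987, 2778 and 1971 normalized read counts in the LP+/+ livers, 1916 and 1483 in both LPfl/+ livers, and 3912, 2382 and 3773 in the LP245/+ livers. LP+/+ replicate 1 was again the lowest liver and LP245/+ replicate 1 the highest, and LP245/+ overlapped LP+/+ through replicate 2 of each. The log2 fold change of Tef was 0.82 (SE 0.32, edgeR adjusted p = 0.806) in LP245/+ compared with LP+/+, and 0.98 (SE 0.37, adjusted p = 0.525) compared with LPfl/+, where it turned to -0.28 with the series as a covariate. Hlf (chr11:90336536-90390895, minus strand) is the third PAR bZIP factor and swung the least of the 9 genes. Its normalized read count ranged from 703 in LPfl/+ replicate 2 to 1158 in LP245/+ replicate 1, and the mean was 910 ± 132 (SD, n = 3) for LP+/+, 814 ± 157 (SD, n = 2) for the LPfl/+ livers and 1033 ± 125 (SD, n = 3) for LP245/+. The 3 genotypes overlapped, and Hlf differed between LP245/+ and LP+/+ by a log2 fold change of 0.20 (SE 0.15, edgeR adjusted p = 0.856).

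Nfil3, the repressor at the D-box (chr13:52967209-52981073, minus strand), was highest in the controls. The LP+/+ livers had 1280, 1418 and 1388 normalized read counts, the LPfl/+ livers 1047 and 581, and the LP245/+ livers 715, 1058 and 1269. The 5 livers with a Trp53 lesion were all below the 3 LP+/+ livers, by little in LP245/+ replicate 3. Of all tested genes, 5.79% were below LP+/+ in every LP245/+ liver and 13.2% in every LPfl/+ liver. The share below in both was not counted. The log2 fold change of Nfil3 was -0.73 (SE 0.26) in LPfl/+ compared with LP+/+, with an edgeR adjusted p of 0.697 and an unadjusted p of 0.0195. It was -1.23 without LPfl/+ replicate 1 and -0.39 without LPfl/+ replicate 2. In LP245/+ compared with LP+/+ it was -0.42 (SE 0.23, adjusted p = 0.831). The 3 LP+/+ livers, which lie in both series, differed little, and LP245/+ was lower than LP+/+ by 0.47 on the log2 scale within the first series, as was LPfl/+ by 0.65 within the second.

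**Figure D2:**
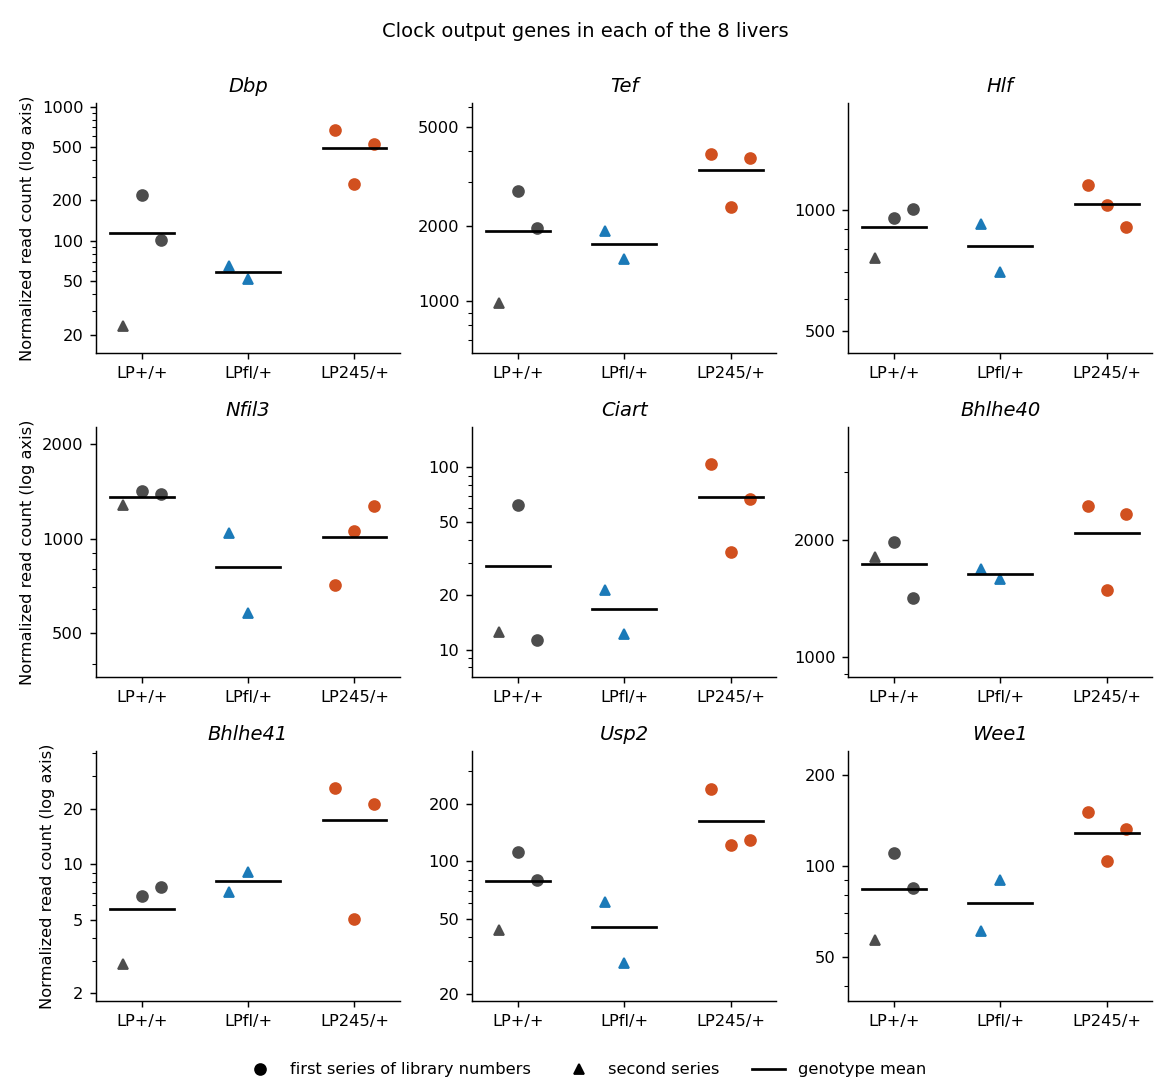
Normalized read count (log axis) of the 9 clock output genes in each of the 8 livers, by genotype. Circles are livers of the first series of library numbers, triangles those of the second, and horizontal bars the genotype means; within a genotype, replicates 1 to 3 run from left to right. For Dbp the 3 LP245/+ livers (267 to 667) lie above all others, and for Nfil3 the 3 LP+/+ livers (1280 to 1418) lie above all others. The share of all genes with a genotype apart from both others was not counted.

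Among the repressors of the E-box, Ciart (chr3:95878503-95882251, minus strand) was a low gene with a wide swing. Its normalized read counts were 12.6, 62.4 and 11.3 for the LP+/+ livers, 21.3 and 12.1 for the LPfl/+ livers, and 104, 34.4 and 67.2 for the LP245/+ livers. LP+/+ replicate 2 reached the LP245/+ range, and the other LP+/+ livers stayed with LPfl/+. The log2 fold change of Ciart was 1.26 (SE 0.63, edgeR adjusted p = 0.831) in LP245/+ compared with LP+/+. It was 2.51 without LP+/+ replicate 2 and 0.82 without LP245/+ replicate 1. In LP245/+ compared with LPfl/+ it was 2.03 (SE 0.77, edgeR adjusted p = 0.526), and 0.49 (adjusted p = 0.995) with the series as a covariate. The raw counts behind Ciart were between 12 and 101 per liver, which limits the precision of its swing. Bhlhe40 (chr6:108660629-108666925, plus strand) was abundant, from 1416 in LP+/+ replicate 3 to 2448 in LP245/+ replicate 1. Its 3 genotypes overlapped, with a log2 fold change of 0.28 (SE 0.19, edgeR adjusted p = 0.846) in LP245/+ compared with LP+/+. Bhlhe41 (chr6:145858243-145865558, minus strand) was near the floor of the assay, with raw counts of 3, 7 and 8 for the LP+/+ livers, 7 and 9 for the LPfl/+ livers, and 25, 5 and 21 for the LP245/+ livers. It reached 10 counts in LP245/+ replicates 1 and 3 alone and so passed the filter on low counts through that genotype, so that its log2 fold change of 1.59 (SE 0.61, edgeR adjusted p = 0.801) is given as a description. LP245/+ replicate 2 lay within the range of LP+/+.

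Usp2 (chr9:44067021-44095627, plus strand) encodes a deubiquitinase whose transcript is rhythmic in many tissues. The LP+/+ livers had 43.5, 112 and 80.0 normalized read counts, the LPfl/+ livers 60.8 and 29.3, and the LP245/+ livers 240, 122 and 130. All LP245/+ livers were above the rest, but replicate 2 exceeded LP+/+ replicate 2 by less than the spread within either genotype. The log2 fold change of Usp2 was 1.07 (SE 0.39, edgeR adjusted p = 0.795) in LP245/+ compared with LP+/+, and 1.87 (SE 0.48, adjusted p = 0.362) compared with LPfl/+. Wee1 (chr7:110122046-110143286, plus strand), the mitotic inhibitor and a known E-box gene of liver, was at 57.0, 110 and 84.7 normalized read counts in the LP+/+ livers, 60.8 and 89.9 in both LPfl/+ livers, and 151, 104 and 132 in the LP245/+ livers. LP245/+ lay above LPfl/+ in every liver and overlapped LP+/+ through replicate 2. The log2 fold change of Wee1 was 0.63 (SE 0.27, edgeR adjusted p = 0.831) in LP245/+ compared with LP+/+. Of the 9 genes, all but Hlf and Nfil3 overlap a gene on the opposite strand in the GENCODE annotation (Sphk2 for Dbp, C920021L13Rik for Ciart), and the strand setting of the counting is not given in the sources used here, so that reads of the partners cannot be told apart.

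Over the genotypes, none of the 9 genes passed the cutoff of the study (a log2 fold change of 1 or more in either direction, at an adjusted p of 0.05 or less) with edgeR, which called 0.00606% of all genes in LP245/+ compared with LP+/+ and 0% in each of LPfl/+ compared with LP+/+, LP245/+ compared with LPfl/+, and the test for any difference among the 3 genotypes, which has no single fold change and was called on an adjusted p of 0.05 or less alone. Bhlhe41 is left out of the counts that follow, since it passed the filter through LP245/+. At an unadjusted p below 0.05, 4 of the other 8 genes were higher in LP245/+ than in LP+/+ (Dbp, Tef, Usp2 and Wee1), beside 3.55% of all genes higher and 2.38% lower, and 2 with the series as a covariate (Dbp and Tef). Between LP245/+ and LPfl/+, 5 were higher (Dbp, Tef, Ciart, Usp2 and Wee1), beside 4.07% of all genes, and 0 with the covariate. In LPfl/+ compared with LP+/+ only Nfil3 was lower, beside 2.67%, and with the covariate 0 were lower and 1, Tef, was higher. With the covariate, 1097, 870 and 886 of the 16496 genes passed the unadjusted p in these 3 comparisons, in either direction. The last 2 comparisons share the LPfl/+ livers, and each pair of comparisons shares a genotype. Of the 8 genes, 7 had a log2 fold change above 0 in LP245/+ compared with LP+/+ (median 0.73 against 0.00 over all tested genes), and 7 also did with the covariate (median 0.46). In LPfl/+ compared with LP+/+, 8 were below 0 (median -0.45), but 6 were above 0 with the covariate and within the second series alone.

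Whether the calls were made depended on the fit. With DESeq2, the tool of the study, Usp2 passed the cutoff in LP245/+ compared with LPfl/+ (log2 fold change 1.87, adjusted p = 0.00644; background 0.39% of genes) and the adjusted p of 0.05 in the test for any difference (adjusted p = 0.0176; background 0.404%). Without the filter on low counts, edgeR called Dbp in LP245/+ compared with LP+/+ (adjusted p = 0.0179; background 0.0661%). It then also called Dbp and Usp2 in LP245/+ compared with LPfl/+ (adjusted p = 0.000839 and 0.00746; background 0.403%) and in the test for any difference (background 0.503%). Without LP+/+ replicate 1, edgeR called Dbp in LP245/+ compared with LPfl/+ (adjusted p = 0.0215; background 0.288%) and in the test for any difference (adjusted p = 0.0290; background 0.448%). In that fit the LPfl/+ livers are the whole second series, so that LPfl/+ and the series cannot be told apart. With the series as a covariate, no member was called, and Dbp in LP245/+ compared with LPfl/+ had a log2 fold change of 0.28 (SE 0.84, edgeR adjusted p = 0.995).

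**Figure D3:**
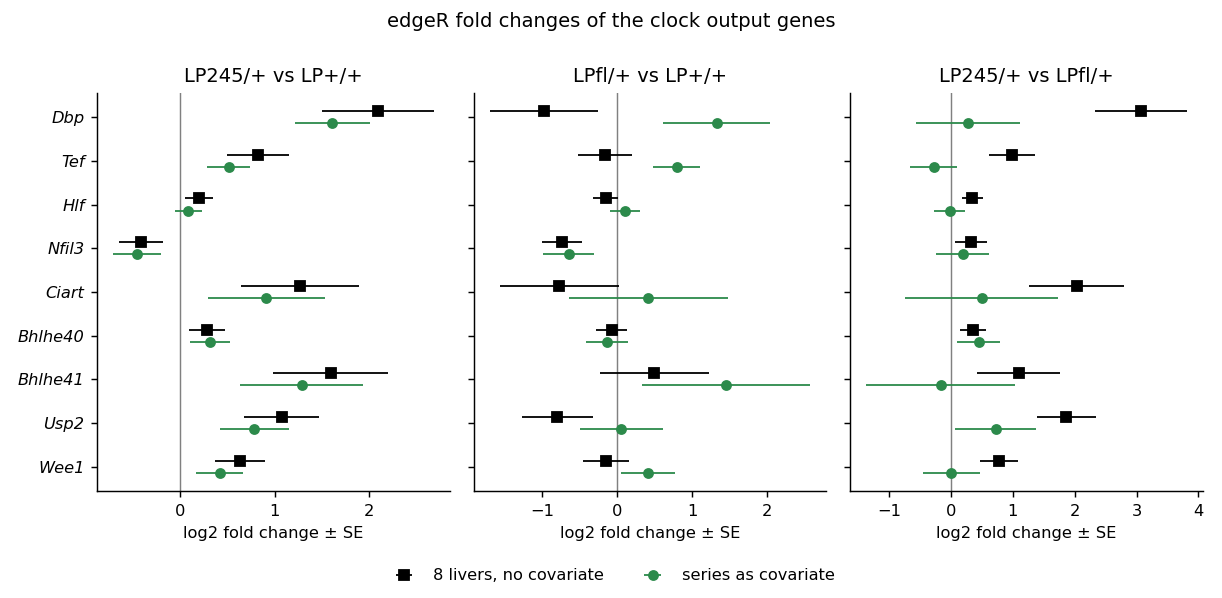
Log2 fold changes (x axis) of the 9 genes by edgeR in the 3 comparisons, with bars of 1 SE, without a covariate (squares) and with the series as a covariate (circles). With the covariate, Dbp in LPfl/+ compared with LP+/+ moves from -0.98 to 1.33, and in LP245/+ compared with LPfl/+ from 3.07 to 0.28.

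Counted by liver, every LP245/+ value exceeded every LP+/+ value for Dbp and Usp2, as it did for 6.03% of all genes, and every LP245/+ value was below every LP+/+ value for Nfil3, as for 5.79%. LP245/+ exceeded LPfl/+ in every liver for Dbp, Tef, Ciart, Usp2 and Wee1, as for 12.1% of all genes, and LPfl/+ was below LP+/+ in every liver for Nfil3, as for 13.2%. These shares are by pair of genotypes, and the share of genes with a genotype apart from both others was not counted. Regardless of genotype, every liver of the first series exceeded every liver of the second for Dbp, Tef and Usp2, as for 4.49% of all genes. The series held 71.0% of the variance of Dbp on the log2 scale and 71.5% of that of Usp2, and the genotypes held 68.5% and 68.3%. For Nfil3 the series held 11.2% and the genotypes 52.7%. Over all tested genes the series held a median of 12.6% (90th percentile 55.1%) and the genotypes one of 28.7% (90th percentile 65.3%).

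Across the 8 livers, the log2 normalized read count of Dbp was followed most closely, among these genes, by Tef (Pearson r = 0.976, Spearman rho = 0.976, exact permutation p = 0.000124 for r and 0.000397 for rho over 40320 pairings). Adjusted over all 16495 other tested genes, these p-values were 0.114 and 0.187. No gene of the table passed an adjusted p of 0.05, with a smallest value of 0.0744, while 10.4% of genes had an unadjusted p below 0.05 for r. Wee1 (r = 0.930, rho = 0.905), Usp2 (r = 0.918, rho = 0.976) and Ciart (r = 0.895, rho = 0.810) came next, with exact permutation p for r of 0.00124, 0.00164 and 0.00585, adjusted p of 0.220, 0.220 and 0.282. Bhlhe41, Hlf and Bhlhe40 had r of 0.767, 0.753 and 0.599, and Nfil3 had an r of -0.02. The r of Bhlhe41 is only a description, since this gene passed the filter on low counts through LP245/+, where Dbp was also highest. The 2 livers farthest from the median of Dbp were LP+/+ replicate 1 and LP245/+ replicate 1. Without them, r was 0.952 for Tef, 0.837 for Wee1, 0.895 for Usp2 and 0.856 for Ciart. It was then 0.420 for Bhlhe41, 0.628 for Bhlhe40, 0.501 for Hlf and 0.593 for Nfil3. The series hold 5 and 3 livers, and no correlation within either alone is given here. On deviations from the means of the series, r was 0.941 for Tef, 0.806 for Wee1, 0.716 for Usp2, 0.854 for Ciart, 0.810 for Bhlhe41, 0.701 for Bhlhe40, 0.287 for Hlf and -0.60 for Nfil3.

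The core loop was measured in the same livers, and its genes lay on both sides of Dbp. Arntl, which encodes BMAL1, ran opposite to Dbp, with 1073, 538 and 659 normalized read counts in the LP+/+ livers, 759 and 831 in both LPfl/+ livers, and 236, 497 and 355 in the LP245/+ livers. The livers ordered by Dbp were in exactly the reverse order by Arntl (r = -0.97, rho = -1; exact permutation p = 4.96e-05 for each, adjusted p = 0.0744 and 0.102). Npas2 (r = -0.96) and Cry1 (r = -0.97) ran the same way as Arntl. Npas2, the stand-in for CLOCK, went from 317 in LP+/+ replicate 1 to 25.5 in LP245/+ replicate 3. Cry1, a repressor of the loop, was lower in every LP245/+ liver (238 to 269) than in any other (353 to 600). Clock itself swung by 0.33 on the log2 scale, and its r with Dbp was -0.84. On the side of Dbp were Per3 (r = 0.984), Nr1d1 (r = 0.951), Per2 (r = 0.916), Nr1d2 (r = 0.883) and Per1 (r = 0.730), all repressors of the loop. Nr1d1, which encodes REV-ERBα, went from 148 in LP+/+ replicate 1 to 1764 in LP245/+ replicate 1. Cry2 swung by 0.38 and was loosely related to Dbp (r = 0.353). On deviations from the means of the series, r was -0.94 for Arntl, -0.87 for Npas2, -0.93 for Cry1, 0.975 for Per3, 0.821 for Nr1d1, 0.759 for Per2 and 0.878 for Nr1d2, but 0.260 for Per1 and -0.52 for Clock.

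**Figure D4:**
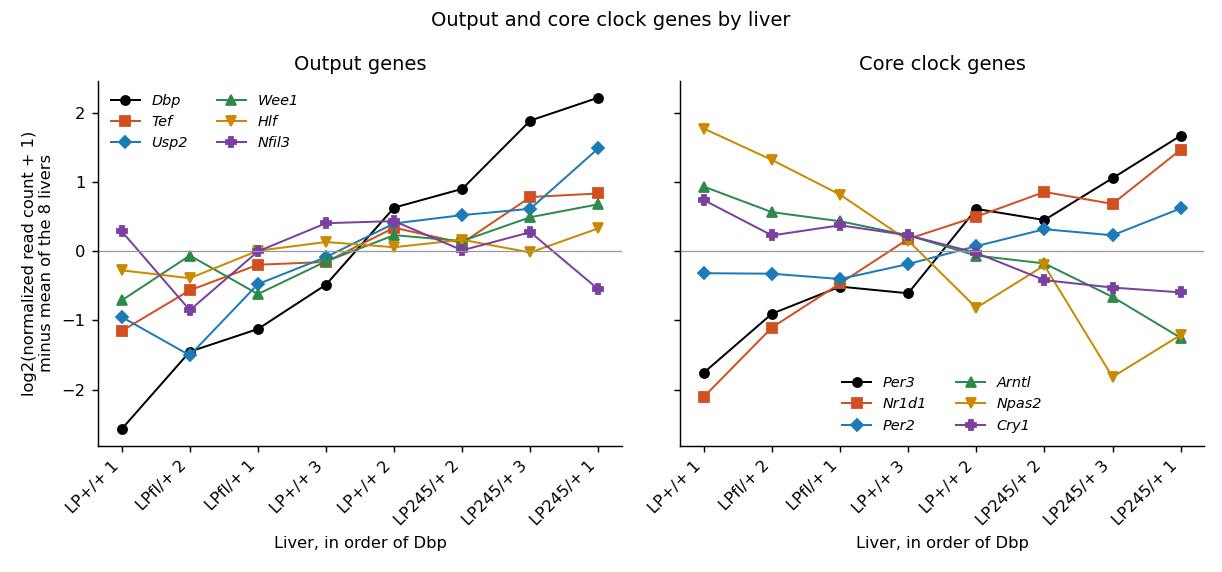
Log2(normalized read count + 1) minus its mean over the 8 livers (y axis), for output genes (left) and core clock genes (right), with the livers ordered by Dbp along the x axis. Tef (r = 0.976), Per3 (r = 0.984) and Nr1d1 (r = 0.951) run with Dbp, Arntl, Npas2 and Cry1 run against it, and Nfil3 (r = -0.02) does neither.

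Of the 17 core loop genes listed, 0 passed the cutoff with edgeR in any of the 3 comparisons. At an unadjusted p below 0.05, 4 were higher in LP245/+ compared with LP+/+ (Per2, Per3, Nr1d1 and Nr1d2), beside 3.55% of all genes, and 4 were lower, among them Arntl, Npas2 and Cry1, beside 2.38%. Per2 had a log2 fold change of 0.55 (SE 0.13, edgeR adjusted p = 0.795), Arntl of -1.05 (SE 0.29, adjusted p = 0.795) and Cry1 of -0.85 (SE 0.18, adjusted p = 0.795). In LPfl/+ compared with LP+/+, 0 were higher and 1 was lower, beside 2.67% of all genes lower. It was Csnk1d, a kinase that acts on PER proteins (log2 fold change -0.25, SE 0.09, edgeR adjusted p = 0.697). Between LP245/+ and LPfl/+, 4 were higher and 3 lower, beside 8.51% of all genes in either direction. With the series as a covariate, 4 were higher and 3 lower in LP245/+ compared with LP+/+, beside 1097 of 16496 genes in either direction. In LPfl/+ compared with LP+/+ 2 were then higher and 2 lower, beside 886 genes. Between LP245/+ and LPfl/+ it was 0 and 0, beside 870 genes.

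Genes known as targets of the PAR bZIP factors, most of them enzymes of drug and sterol metabolism, formed a list of 12, and 0 of them passed the cutoff with edgeR in any comparison. In LPfl/+ compared with LP+/+, all 12 had a log2 fold change below 0 (median -0.80 against 0.00 over all tested genes), 4 of them with an unadjusted p below 0.05 (2.67% of all genes), among them Por, the electron donor of the cytochromes P450 (-0.89, SE 0.32, edgeR adjusted p = 0.697), and Cyp2a5 (-1.16, SE 0.29, adjusted p = 0.697). The direction did not hold within the second series, where 8 of the 12 were above 0 in LPfl/+ compared with LP+/+ replicate 1 and 4 below, Cyp2a5 at -0.43 among the latter. In LP245/+ compared with LP+/+, 6 were above 0 and 6 below, with 0 at an unadjusted p below 0.05 (edgeR). With the series as a covariate, 5 were above 0 and 7 below (median -0.26). Of these 12, 5 were then lower and 0 higher at an unadjusted p below 0.05, beside 1097 of 16496 genes in either direction. In LP245/+ compared with LPfl/+, 11 were above 0 and 1 below (median 0.94), 6 of them higher at an unadjusted p below 0.05 (4.07% of all genes), but 4 were above and 8 below with the series as a covariate. Por followed the series, at 1667 in LP+/+ replicate 1 and 1842 and 1491 in LPfl/+, against 3522 to 4784 in the 5 livers of the first series. The widest swings on the log2 scale were those of Cyp4a14 (7.09), Cyp2b10 (5.41) and Cyp4a10 (4.73). Cyp4a14, a fatty acid hydroxylase, had 118 normalized read counts in LP+/+ replicate 1 and 16177 in LP+/+ replicate 3. Cyp2b10 rests on few counts and was at 0 in LP+/+ replicate 1 and LPfl/+ replicate 1, where a count of 0 allows up to 3 counts in the library. The r with Dbp on deviations from the series means was 0.438 for Por, -0.67 for Cyp2a5 and 0.07 for Cyp4a14.

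Chosen by a rule over all tested genes with a mean normalized read count of at least 50, the 5 genes whose pattern over the 8 livers was most like that of Dbp were Fam102b (r = 0.987), Per3 (r = 0.984), Tef (r = 0.976), Cd55 (r = 0.976) and Ugcg (r = 0.974). The 5 least like it were Loxl4 (r = -0.996), Arhgef10l (r = -0.98), Wdr91 (r = -0.98), Tjp3 (r = -0.97) and Dtx4 (r = -0.97). Each had an adjusted p of at least 0.0744 by the exact permutation test.

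Hepatocyte markers defined these livers, as the tissue label says, with Alb the most abundant of the list. All 6 hepatocyte markers were detected in every liver, with summed normalized read counts from 2757120 in LPfl/+ replicate 2 to 4008460 in LP+/+ replicate 3. The sum over 5 Kupffer cell markers, led by Clec4f, was lowest in LP245/+ replicate 1 (6376), the liver with the highest Dbp, and highest in LPfl/+ replicate 1 (10522). The sum over 5 endothelial markers, led by Stab2, was lowest in LPfl/+ replicate 1 (8075) and highest in LP+/+ replicate 3 (12638). Sums over the stellate cell markers (most abundant Reln), cholangiocyte markers (Spp1) and lymphocyte markers (Ptprc) ranged from 11154 to 14104, from 655 to 1136 and from 488 to 816. None of the 2 defining markers of any of these 6 cell types was at 0 in a liver. The share of counts from mitochondrial genes was 5.88% to 6.90% in LP+/+, 8.003% and 9.70% in LPfl/+, and 7.57% to 9.70% in LP245/+. The part of these differences in the values of the clock output genes was not tested.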

How the data were processed

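Read counts per gene were deposited by the authors without normalization. Reads were paired-end, from libraries of stranded total RNA, and were aligned to GRCm38 and counted with STAR on a GENCODE annotation whose release and strand setting are not given in the sources used here. Symbols and positions came from GENCODE M21, which names 49326 of the 49585 identifiers, and 0 columns were left unmatched. Promoter windows are those of RefSeq.

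All 8 livers were fitted together in R 4.3.3 with the quasi-likelihood F test of edgeR 4.0.16, after TMM scaling and filterByExpr by genotype, with Benjamini-Hochberg adjustment over 16496 genes. For normalized read counts, each count was divided by its library's size factor (DESeq2 1.42.0). Correlations used log2(normalized read count + 1) and every pairing of the livers, 2-sided. The edgeR fit was tested on simulated data made for LP245/+ compared with LP+/+ over 16496 genes. It recovered past the cutoff 58 of 100 genes changed 2-fold and 100 of 100 changed 4-fold. On the adjusted p alone it recovered 100 of 100 at either fold, and 3 false calls passed the cutoff over both folds together. Every simulated gene had the same fixed spread between livers, not its own, and only genes above a minimum level were changed. The recovery therefore does not carry over to lower or more variable genes. No pair of libraries was a duplicate (lowest chi-square per gene 17.9 over 28 pairs). Each liver is a separate animal, and intervals for counting error were not added.

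The members, the gene lists and the tests were chosen with earlier results of these data known. Named were the 9 members, 10 core loop genes, list genes past a cutoff or with the 3 widest swings, and the 5 genes most and least like Dbp; Por, Cyp2a5 and Csnk1d were named after their values were seen, and 1 result of the core loop list is not reported here. Alternatives were DESeq2, other scalings, filters and pseudocounts, the replicate block, the series as a covariate and each liver left out; deviations from series means were added after seeing the data.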

Additional observations from a re-analysis of the deposited data

How the results depend on the processing

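With groups of 2 and 3 livers, the calls rest on few animals. Genes past the cutoff numbered 1, 0, 0 and 0 with edgeR in LP245/+ compared with LP+/+, LPfl/+ compared with LP+/+, LP245/+ compared with LPfl/+ and the test for any difference, the last on the adjusted p alone (978, 1137, 1404 and 1285 at an unadjusted p below 0.05). In that order they numbered 10, 9, 56 and 74 with DESeq2, 20, 14, 122 and 152 without the filter on low counts, and 3, 3, 10 and 8 with the series as a covariate. Leaving out 1 liver at a time gave 0 to 5, 0 to 59, 0 to 47 and 0 to 73, the last 3 highest without LP+/+ replicate 1. Members past the cutoff were 0 in every comparison with edgeR, but 1 in LP245/+ compared with LP+/+ without the filter, 1 with DESeq2 and 2 without the filter both in LP245/+ compared with LPfl/+ and in the test for any difference, and 0 to 1 in those last 2 with a liver left out. The causes were not tested. The replicate numbers did not pair the livers (correlations of same-numbered deviations from -0.08 to 0.03), and the replicate block gave 0 genes and 0 members past the cutoff in all 4 tests.

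The median swing of the 9 members was 1.99 on the log2 scale, 0.99 within the first series, 0.96 within the second, and 1.40 to 1.99 with a liver left out, lowest without LP+/+ replicate 1. Without Bhlhe41, which passed the filter through LP245/+ (a choice made after seeing the data), these medians were 1.69, 0.99 and 0.86 over all livers, the first and the second series. With the series as a covariate, log2 fold changes reversed in LPfl/+ compared with LP+/+ for Dbp (1.33), Tef (0.79), Hlf (0.11), Ciart (0.41), Usp2 (0.058) and Wee1 (0.41), and in LP245/+ compared with LPfl/+ for Tef (-0.28), Hlf (-0.023) and Bhlhe41 (-0.17). With a liver left out, those of LPfl/+ compared with LP+/+ crossed 0 for Tef (-0.47 to 0.19), Hlf (-0.38 to 0.017), Ciart (-1.24 to 0.48), Bhlhe40 (-0.21 to 0.018) and Wee1 (-0.47 to 0.093), that of Nfil3 ran from -1.23 to -0.39, and that of Nfil3 in LP245/+ compared with LPfl/+ ranged from -0.039 to 0.81. No log2 fold change of a member in LP245/+ compared with LP+/+ reversed under any alternative run, but with a liver left out they ranged from 1.61 to 2.96 for Dbp, 0.51 to 1.18 for Tef, 0.82 to 2.51 for Ciart, 0.68 to 1.41 for Usp2 and 0.42 to 0.86 for Wee1, each highest without LP+/+ replicate 2 and lowest without LP+/+ replicate 1, or for Ciart and Usp2 without LP245/+ replicate 1. Those of Hlf (0.083 to 0.27), Bhlhe40 (0.14 to 0.47) and Nfil3 (-0.62 to -0.23) also moved. Other scalings and pseudocounts kept the median swing within the spread between replicates.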

Other observations

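Other genes known to be rhythmic in liver, a list of 21, had a median swing of 1.13 on the log2 scale over the 8 livers, against 0.69 over all tested genes and 0.48 over those with a mean normalized read count of at least 100, and 14 of the 21 were above 0.69 and 7 below. With edgeR, 0 of them passed the cutoff in any of the 3 comparisons. The widest swings on the log2 scale were those of Lpin1 (2.89), Hspa1b (2.61) and Slc25a25 (2.39). Lpin1, a phosphatidate phosphatase, was at 4201, 4266 and 8329 normalized read counts in the LP+/+ livers, 4841 and 1903 in both LPfl/+ livers, and 14094, 6192 and 7910 in the LP245/+ livers, so that LP245/+ and LP+/+ overlapped. Hspa1b, a heat-inducible HSP70 chaperone, was at 42.5, 75.9 and 77.2 in the LP+/+ livers, 39.5 and 27.3 in both LPfl/+ livers, and 160, 172 and 130 in the LP245/+ livers, and every liver of the first series exceeded every liver of the second, as for 4.49% of all genes. Its log2 fold change was 1.25 (SE 0.26, edgeR adjusted p = 0.795) in LP245/+ compared with LP+/+, and 2.21 (SE 0.32, adjusted p = 0.321) compared with LPfl/+, or 1.02 (adjusted p = 0.376) and 1.36 (adjusted p = 0.601) with the series as a covariate. With DESeq2 and no covariate, Hspa1b passed the cutoff in both (adjusted p = 0.0233 and 6.8e-07). The same fit called 10 of 18881 genes in the first and 56 of 14349 in the second, whose genotypes share no series. Slc25a25, a mitochondrial carrier, followed the series, at 12395 in LP+/+ replicate 1 and 10794 and 8889 in LPfl/+, against 2360 to 4312 in the 5 livers of the first series.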
